A study of Mus musculus with 22 samples.

Results

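The 33 genes described here are transcripts by which T lymphocytes are recognised: chains of the T cell receptor, coreceptors, signalling proteins, transcription factors and surface receptors. They were chosen by name from a table of 54532 genes, and each name matched 1 gene. Whole lungs of young male C57BL6/j mice were sequenced after 8 days. One group was kept in hypoxia and given ABT-263 at 50 mg/kg per day (5 libraries), and a second in hypoxia and given vehicle (6 libraries). Another was kept in normoxia with the same dose of ABT-263 (6 libraries), and the control group in normoxia with vehicle (5 libraries). ABT-263 (navitoclax) is a senolytic drug that blocks members of the BCL-2 family, proteins that keep cells from apoptosis. The oxygen level of the hypoxia and the route of the drug are not given in the sources used here.

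T cells recognise peptides held by MHC molecules through a receptor of an alpha and a beta chain. That receptor has no signalling tail of its own and depends on the CD3 chains, which are phosphorylated by the kinase Lck and recruit the kinase Zap70. In the lung, T cells circulate through the capillary bed, lie in the interstitium and form part of the resident memory pool. In RNA from whole tissue, fewer T cells and less RNA of these genes per T cell cannot be told apart. Some of the genes are also made by other cells, whose part in the levels below was not tested.

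Library totals ran from 11509007 to 15744193 counts, and levels are given as CPM, counts scaled to the size of the library after TMM normalization. Defining lung genes were abundant in all 22 libraries, with Sftpc, the surfactant protein of alveolar type 2 cells, at 22554 CPM or more and Pecam1, an endothelial adhesion protein, at 385 CPM or more. Genes of immature thymocytes were scarce: Ptcra, the surrogate alpha chain of the receptor, reached at most 0.145 CPM. The recombinase gene Rag1 reached at most 1.07 CPM outside the hypoxia ABT-263 group and 2.95 CPM in replicate 3 of that group. The same library had the highest Rag2 (0.655 CPM) and the highest Dntt (1.47 CPM), and was the highest of its group for 16 of 29 T cell genes. Of the genes listed for lymph node stroma and follicles, Ccl21a and Ccl19, which both have near-identical copies in the genome, were listed at 0 in every library, while others were present. That list summed to 16.9 ± 2.08 CPM (SD, n = 5) in hypoxia ABT-263, 25.1 ± 3.97 (n = 6) in hypoxia vehicle, 29.6 ± 5.12 (n = 6) in normoxia ABT-263 and 43.8 ± 7.94 (n = 5) in normoxia vehicle lungs. In the normoxia vehicle group, replicate 4 was the highest of 5 libraries for 24 of 29 T cell genes. In replicate 1 of each of the hypoxia ABT-263, hypoxia vehicle and normoxia ABT-263 groups, the treatment tag names the other treatment than the sample title. Groups follow the titles, and the count of genes called without those 3 libraries is given beside each comparison. For fits with libraries left out or treatment taken from the tags, the share of all genes called was not counted.

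Of the 33 genes, 29 had enough counts to be tested. Cd28 and Icos, which encode costimulatory receptors, and Ctla4, an inhibitory receptor, had fewer than 10 counts in every library, and Cd40lg, which encodes the ligand with which helper T cells activate B cells, had 10 or more in 3 of 22 libraries, all of them normoxia vehicle. Cd40lg had 0.0707 to 0.409 CPM in the hypoxia ABT-263 lungs, 0.0712 to 0.442 CPM in the hypoxia vehicle lungs, 0.125 to 0.658 CPM in the normoxia ABT-263 lungs and 0.429 to 0.986 CPM in the normoxia vehicle lungs. These 4 genes enter no test or count of tested genes below. Foxp3 and Ubash3a passed the filter with few counts, Foxp3 with 10 or more in 13 libraries and Ubash3a with as many in 12.

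Added up, the 33 genes had 195, 180, 234, 195 and 198 CPM in the hypoxia ABT-263 lungs and 225 to 245 CPM (median 232) in the hypoxia vehicle lungs. In normoxia the sum was 199 to 257 CPM (median 222) in the ABT-263 lungs and 311, 273, 293, 389 and 340 CPM in the vehicle lungs. Every normoxia vehicle lung thus lay above every lung of the other groups, while the other 3 groups overlapped. The 3 libraries with conflicting labels had sums of 195 CPM in the hypoxia ABT-263 group, 243 CPM in the hypoxia vehicle group and 203 CPM in the normoxia ABT-263 group.

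**Figure D1:**
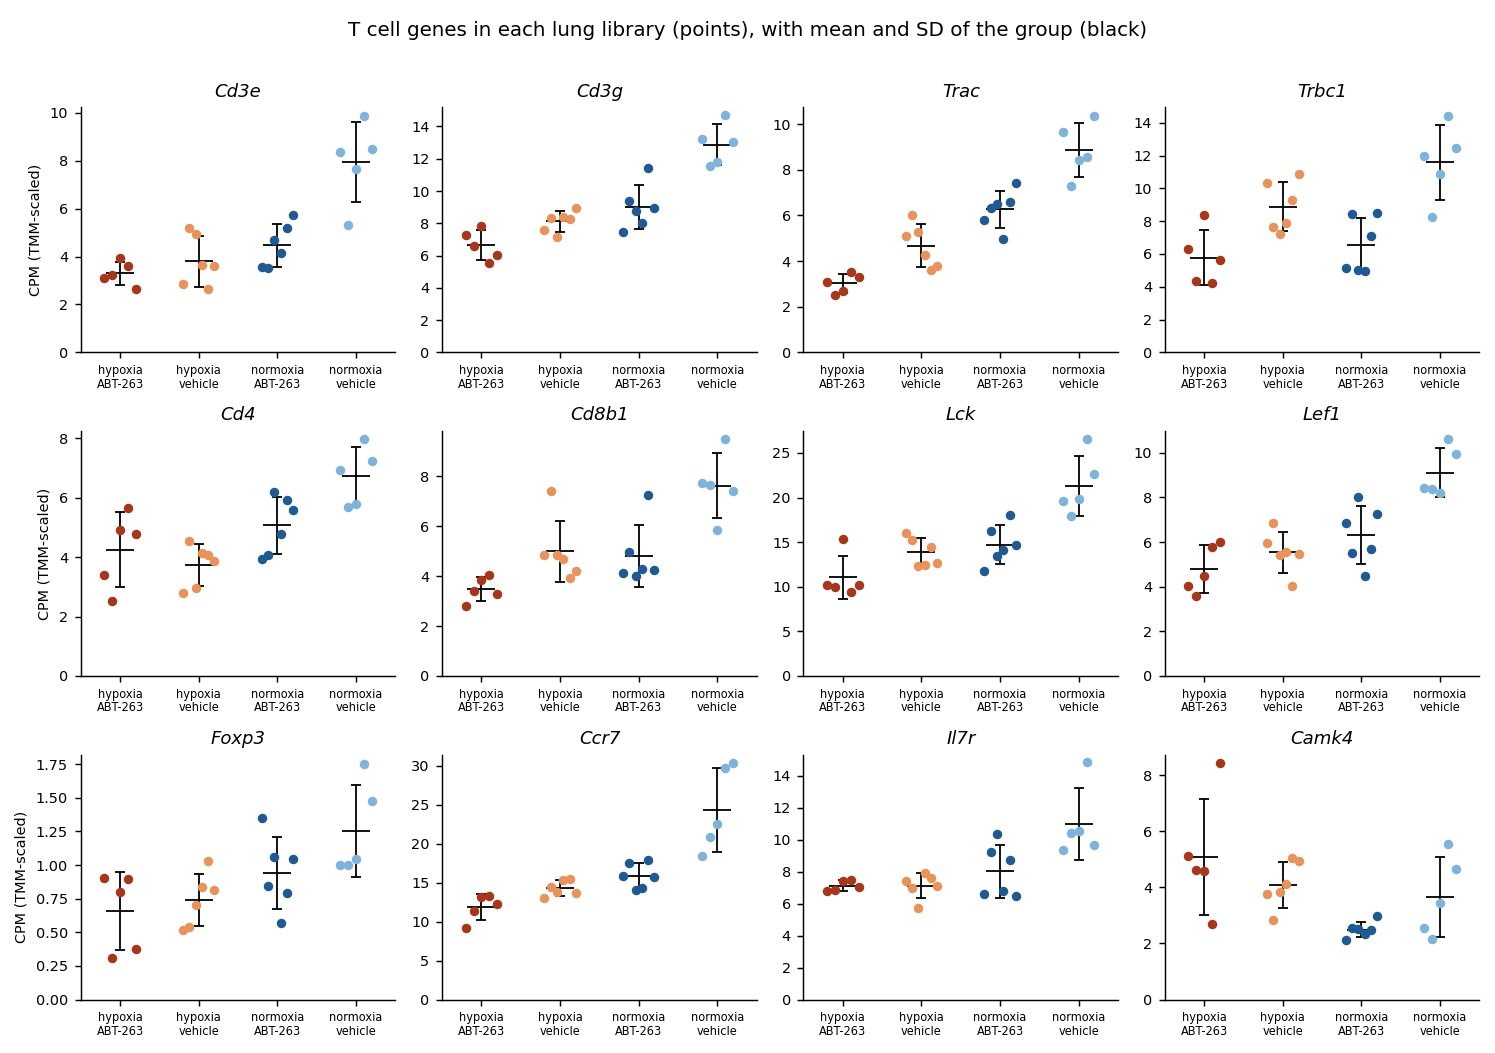
Levels of 12 T cell genes in CPM on the vertical axis, from 0, with 1 point for each library and the mean and SD of each group in black. The groups on the horizontal axis are hypoxia ABT-263, hypoxia vehicle, normoxia ABT-263 and normoxia vehicle. Ccr7 had 13.0 to 15.5 CPM in the hypoxia vehicle lungs and 18.4 to 30.4 CPM in the normoxia vehicle lungs, without overlap, whereas the library with the most Camk4, at 8.42 CPM, was a hypoxia ABT-263 lung.

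The first comparison asked what hypoxia did in vehicle-treated lungs. Hypoxia lowered 18 of the 29 tested T cell genes and raised none, and 11 did not pass (edgeR quasi-likelihood test, adjusted p under 0.05). Of all 16638 tested genes, 12.8% were lower and 13.5% higher by the same rule. The median log2 fold change was −0.62 over the 29 genes and 0.00 over all genes. For 13 of the 29 genes every hypoxia vehicle lung lay below every normoxia vehicle lung, which was so for 6.96% of all genes. Without the libraries whose labels conflict, 17 were lower, and without normoxia vehicle replicate 4 the count was 16.

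Of the receptor itself, Trac, the constant region of the alpha chain (ENSMUSG00000076928, GRCm38 chromosome 14, 54220521 to 54224206), had 3.10, 2.52, 2.70, 3.54 and 3.30 CPM in the hypoxia ABT-263 lungs and 3.59 to 6.01 CPM (median 4.68) in the hypoxia vehicle lungs. It had 4.97 to 7.41 CPM (median 6.42) in the normoxia ABT-263 lungs and 9.66, 7.27, 8.43, 8.57 and 10.3 CPM in the normoxia vehicle lungs. Both hypoxic groups lay wholly below the normoxia vehicle group, and the hypoxia ABT-263 group also lay wholly below the other 2. Under hypoxia with vehicle Trac fell by 0.92 on the log2 scale (SE 0.14, edgeR adjusted p = 3.27e-05).

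The beta chain has constant regions encoded by a pair of neighbouring genes on chromosome 6, Trbc1 (41538218 to 41539881) and Trbc2 (41546730 to 41548352), of which each T cell uses one. Their coding sequences, 518 bases each without the stop codon, were identical at 495 positions (95.6%). The first 350 bases differed at 1 position and the last 168 at 22. The last 168 coding bases, read from the GENCODE M21 transcripts of GRCm38 (plus strand), are printed 5′ to 3′ because they hold 22 of the 23 coding bases that tell the genes apart. Capitals mark the bases that differ.
Trbc1: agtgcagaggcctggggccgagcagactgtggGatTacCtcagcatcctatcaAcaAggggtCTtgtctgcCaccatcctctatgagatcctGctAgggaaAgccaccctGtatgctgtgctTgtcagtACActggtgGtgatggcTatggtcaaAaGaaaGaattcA
Trbc2: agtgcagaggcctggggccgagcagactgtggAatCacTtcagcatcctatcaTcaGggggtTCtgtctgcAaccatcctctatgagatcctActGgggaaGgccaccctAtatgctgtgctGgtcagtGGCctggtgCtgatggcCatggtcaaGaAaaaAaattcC
The deposited expected counts of both genes were whole numbers in all 22 libraries, so the values show no read divided between them. How reads from the shared first part of the sequence were counted was not tested, and the level of each gene is uncertain to that extent. Trbc1 had 6.27, 4.35, 8.35, 4.24 and 5.62 CPM in the hypoxia ABT-263 lungs and 7.25 to 10.9 CPM (median 8.59) in the hypoxia vehicle lungs. In normoxia its level was 4.97 to 8.49 CPM (median 6.12) in the ABT-263 lungs and 12.0, 8.24, 10.9, 14.4 and 12.5 CPM in the vehicle lungs. The groups overlapped, and Trbc1 did not pass under hypoxia with vehicle (−0.39 ± 0.18 SE, adjusted p = 0.108). Trbc2 averaged 14.2 ± 1.66 CPM (SD, n = 6) in hypoxia vehicle lungs and 22.4 ± 4.79 CPM (SD, n = 5) in normoxia vehicle lungs, and fell by 0.66 on the log2 scale (SE 0.14, adjusted p = 0.00139).

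The CD3 genes Cd3g, Cd3d and Cd3e lie side by side on chromosome 9, Cd3g and Cd3d divergent with 1354 bases between them and Cd3d 11400 bases from Cd3e. Cd3e, the CD3 epsilon chain (chromosome 9, 44998740 to 45009627), had 3.10, 3.22, 3.93, 3.61 and 2.64 CPM in the hypoxia ABT-263 lungs and 2.63 to 5.19 CPM (median 3.61) in the hypoxia vehicle lungs. It had 3.52 to 5.73 CPM (median 4.41) in the normoxia ABT-263 lungs and 8.36, 5.32, 7.64, 9.86 and 8.47 CPM in the normoxia vehicle lungs. All 11 hypoxic lungs lay below all 5 normoxia vehicle lungs. Cd3e fell by 51.8% under hypoxia with vehicle (log2 fold change −1.05 ± 0.18 SE, adjusted p = 0.000136), the largest fall among the 29 genes in that comparison.

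Cd3g, the CD3 gamma chain, had 7.28, 6.61, 7.86, 5.52 and 6.03 CPM in the hypoxia ABT-263 lungs and 7.17 to 8.97 CPM (median 8.31) in the hypoxia vehicle lungs. Its level in normoxia was 7.48 to 11.4 CPM (median 8.86) in the ABT-263 lungs and 13.2, 11.6, 11.8, 14.7 and 13.1 CPM in the vehicle lungs. The normoxia vehicle group stood above the other 3 without overlap, and Cd3g fell by 0.66 (log2, SE 0.11, adjusted p = 9.53e-05). Cd247, the zeta chain that carries most of the phosphorylation sites of the complex, fell by 0.64 (SE 0.11, adjusted p = 0.000176). Unlike those of Trbc1 and Trbc2, the expected counts of Cd247 held fractions in all 22 libraries. Cd3d, the delta chain, did not pass: it averaged 12.5 ± 1.91 CPM (SD, n = 6) in hypoxia vehicle lungs and 14.1 ± 3.47 CPM (SD, n = 5) in normoxia vehicle lungs (−0.18 ± 0.18 SE, adjusted p = 0.516).

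Coreceptors bind MHC beside the receptor, CD4 on helper and regulatory cells and the CD8 alpha and beta chains on cytotoxic cells. Cd4 had 3.39, 2.52, 4.91, 5.66 and 4.79 CPM in the hypoxia ABT-263 lungs and 2.80 to 4.56 CPM (median 3.97) in the hypoxia vehicle lungs. In normoxia it had 3.93 to 6.18 CPM (median 5.18) in the ABT-263 lungs and 6.92, 5.69, 5.79, 7.97 and 7.22 CPM in the vehicle lungs. Both hypoxic groups lay below the normoxia vehicle group, narrowly for hypoxia ABT-263, and under hypoxia with vehicle Cd4 fell by 0.84 (log2, SE 0.18, adjusted p = 0.00123).

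Cd8b1, the CD8 beta chain, had 2.81, 3.39, 3.85, 4.03 and 3.30 CPM in the hypoxia ABT-263 lungs and 3.94 to 7.39 CPM (median 4.78) in the hypoxia vehicle lungs. Its level in normoxia was 4.01 to 7.24 CPM (median 4.26) in the ABT-263 lungs and 7.74, 7.64, 5.86, 9.49 and 7.42 CPM in the vehicle lungs. A single hypoxia vehicle library at 7.39 CPM reached into the range of the control group, and Cd8b1 fell by 0.61 (log2, SE 0.17, adjusted p = 0.00997). Cd8a, the alpha chain, had 4.42 to 7.06 CPM in hypoxia vehicle lungs and 7.72 to 9.71 CPM in normoxia vehicle lungs, without overlap, yet missed the threshold (−0.53 ± 0.20 SE, adjusted p = 0.0512).

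Among the signalling proteins only the kinase Lck and the adaptor Sh2d2a passed under hypoxia with vehicle. Lck, which starts signalling from the receptor, had 12.3 to 16.0 CPM (median 13.5) in the hypoxia vehicle lungs and 19.7, 17.9, 19.8, 26.6 and 22.7 CPM in the normoxia vehicle lungs, without overlap, and fell by 0.62 (log2, SE 0.13, adjusted p = 0.000808). Sh2d2a, which binds Lck, fell by 0.97 (SE 0.25, adjusted p = 0.00583) with overlapping groups. The other 6 members of this class did not pass. Zap70, the kinase that docks on the phosphorylated CD3 chains, stood at 0.04 ± 0.13 SE (adjusted p = 0.867), and the scaffold Lat at −0.06 ± 0.16 SE (adjusted p = 0.801). The adaptor Skap1 (−0.42, adjusted p = 0.0520), Themis (−0.26), the phosphatase-like regulator Ubash3a (−0.76) and the calcium-dependent kinase Camk4 (0.16) did not pass either.

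All 4 transcription factors of the set fell. Lef1, which with Tcf7 maintains naive T cells, had 4.05, 3.57, 4.46, 5.80 and 6.02 CPM in the hypoxia ABT-263 lungs and 4.04 to 6.87 CPM (median 5.51) in the hypoxia vehicle lungs. In normoxia it had 4.49 to 8.01 CPM (median 6.27) in the ABT-263 lungs and 8.43, 8.38, 8.20, 10.6 and 9.93 CPM in the vehicle lungs. The control group was again above the other 3 without overlap, and the fall under hypoxia with vehicle was 0.71 (log2 fold change −0.71 ± 0.16 SE, adjusted p = 0.00147). Tcf7 (−0.53 ± 0.12 SE, adjusted p = 0.00237) and Bcl11b, which fixes the T cell fate (−0.84 ± 0.20 SE, adjusted p = 0.00302), also fell.

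Foxp3, the factor that defines regulatory T cells, was scarce, with 0.902, 0.311, 0.803, 0.893 and 0.378 CPM in the hypoxia ABT-263 lungs and 0.520 to 1.03 CPM (median 0.760) in the hypoxia vehicle lungs. Its level in normoxia was 0.571 to 1.35 CPM (median 0.943) in the ABT-263 lungs and 0.998, 1.0, 1.05, 1.75 and 1.48 CPM in the vehicle lungs. The hypoxia vehicle group reached into the lower end of the normoxia vehicle group, and Foxp3 passed narrowly (−0.75 ± 0.28 SE, adjusted p = 0.0468). At these levels its fall rests on few counts, 10 or more in 2 of 6 hypoxia vehicle libraries and in 5 of 5 normoxia vehicle libraries. The expected counts of Foxp3 held fractions in all 22 libraries, so its level is uncertain to the extent that reads were divided between genes.

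Ccr7, the chemokine receptor of naive and central memory cells, had 9.16, 11.3, 13.2, 13.3 and 12.3 CPM in the hypoxia ABT-263 lungs and 13.0 to 15.5 CPM (median 14.1) in the hypoxia vehicle lungs. In normoxia it had 14.0 to 17.9 CPM (median 15.8) in the ABT-263 lungs and 18.4, 20.8, 22.5, 29.7 and 30.4 CPM in the vehicle lungs. The control group stood above all others, and Ccr7 fell by 0.77 (log2, SE 0.12, adjusted p = 3.44e-05).

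Il7r, the receptor for the survival cytokine interleukin-7, had 6.78, 6.87, 7.45, 7.50 and 7.02 CPM in the hypoxia ABT-263 lungs and 5.72 to 7.91 CPM (median 7.27) in the hypoxia vehicle lungs. Its level in normoxia was 6.47 to 10.4 CPM (median 7.74) in the ABT-263 lungs and 9.39, 10.4, 10.6, 14.9 and 9.68 CPM in the vehicle lungs. Hypoxic lungs of either treatment were close to each other and below the control group, and Il7r fell by 0.62 under hypoxia with vehicle (log2, SE 0.13, adjusted p = 0.00136).

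Of the remaining surface proteins, Cd6, a scavenger receptor that tunes receptor signalling, fell by 0.96 (log2, SE 0.21, adjusted p = 0.00136). Its chromosome 19 neighbour Cd5, an inhibitor of receptor signalling, fell too (−0.73 ± 0.16 SE, adjusted p = 0.00183), and so did the adhesion protein Cd2, by the least of the 18 (−0.32 ± 0.11 SE, adjusted p = 0.0254). Cd27, a costimulatory receptor of the TNF family, and Thy1, a surface glycoprotein that fibroblasts also make, stood at −0.07 ± 0.16 SE and 0.07 ± 0.09 SE and did not pass.

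**Figure D2:**
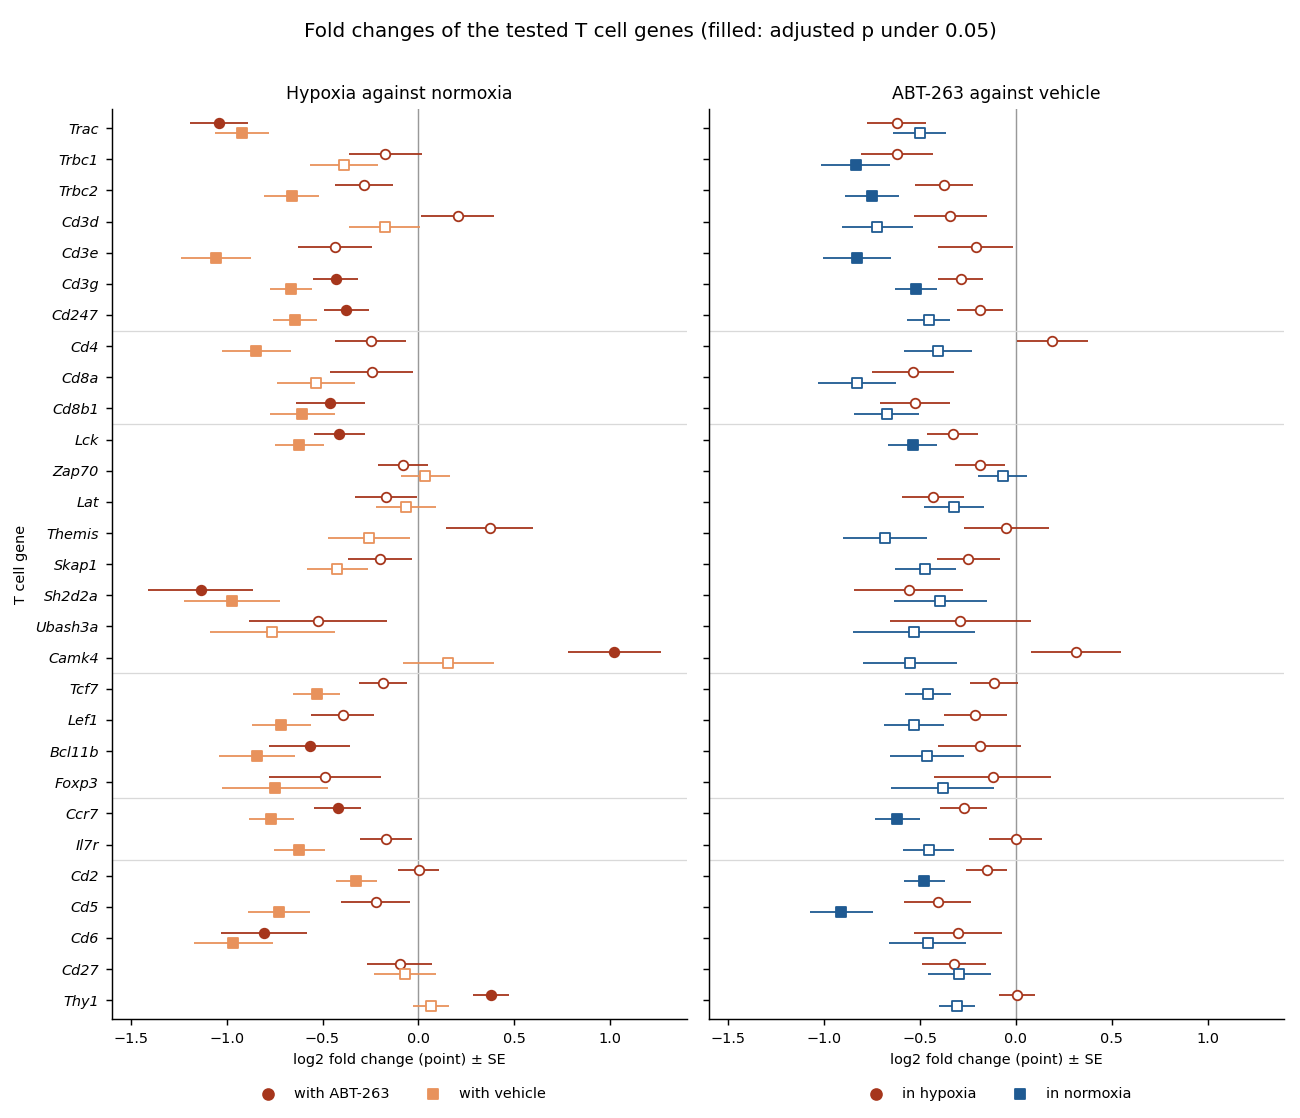
Log2 fold changes with SE (horizontal axis) of the 29 tested T cell genes (vertical axis, grouped by role), for hypoxia against normoxia on the left and for ABT-263 against vehicle on the right, with filled symbols for an adjusted p under 0.05. Under hypoxia with vehicle 18 symbols are filled, all left of 0, and for ABT-263 in hypoxia none is.

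The same oxygen comparison in lungs given ABT-263 asked how hypoxia acted on top of the drug. With ABT-263, 9 of the 29 genes were lower in hypoxia (all genes 21.3%), 2 were higher (all genes 17.9%) and 18 did not pass. The median was −0.25 against −0.02 over all genes, and 5 genes had every hypoxia ABT-263 lung below every normoxia ABT-263 lung (all genes 9.1%). Without the libraries with conflicting labels 8 passed in either direction, 6 of them lower, and with treatment taken from the tags 6 passed, against 11 here (all genes 39.2%). The 11 calls among 29 genes are a share close to that of all genes. Taken by itself, this count does not set the T cell genes apart. This comparison shares no library with that of the vehicle lungs, and the difference between them is tested below as an interaction.

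Trac had the smallest p with ABT-263 and fell by 1.04 on the log2 scale (SE 0.15, adjusted p = 1.01e-05), with all 5 hypoxia ABT-263 lungs below all 6 normoxia ABT-263 lungs. Cd3g (−0.43 ± 0.12 SE), Cd247 (−0.38 ± 0.12), Lck (−0.41 ± 0.13), Ccr7 (−0.42 ± 0.12), Bcl11b (−0.57 ± 0.21) and Cd6 (−0.81 ± 0.22) also fell, with adjusted p values between 0.00474 and 0.0355. Sh2d2a averaged 1.13 ± 0.342 CPM (SD, n = 5) in hypoxia ABT-263 lungs and 2.51 ± 0.61 CPM (SD, n = 6) in normoxia ABT-263 lungs, without overlap (−1.14 ± 0.27 SE, adjusted p = 0.00199). Cd8b1 completed the 9. Cd3e (−0.44 ± 0.19 SE, adjusted p = 0.0750) and Cd4 (−0.25 ± 0.18 SE, adjusted p = 0.294) did not pass.

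The 2 genes that rose were Camk4 and Thy1. Camk4, a kinase of T cells and neurons that acts on calcium signals, had 5.12, 4.61, 4.58, 2.69 and 8.42 CPM in the hypoxia ABT-263 lungs and 2.12 to 2.97 CPM (median 2.49) in the normoxia ABT-263 lungs. It had 2.84 to 5.05 CPM (median 3.99) in the hypoxia vehicle lungs and 2.54, 2.17, 3.43, 5.54 and 4.64 CPM in the normoxia vehicle lungs. Replicate 4 of the hypoxia ABT-263 group overlapped the normoxia ABT-263 group and replicate 5 was the highest of all 22 libraries. Camk4 rose by 1.02 (log2, SE 0.24, adjusted p = 0.00170), and by 0.78 without replicate 5. Thy1 averaged 26.7 ± 4.0 CPM (SD, n = 5) in hypoxia ABT-263 lungs and 20.6 ± 1.23 CPM (SD, n = 6) in normoxia ABT-263 lungs and rose by 0.38 (SE 0.09, adjusted p = 0.00282). Its mean was 26.6 ± 3.37 CPM (SD, n = 6) in hypoxia vehicle and 25.4 ± 2.06 CPM (SD, n = 5) in normoxia vehicle lungs. The hypoxia ABT-263 mean was thus near both vehicle means, and that of normoxia ABT-263 was the lowest.

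What ABT-263 did to these genes without hypoxia was asked in the normoxic lungs. ABT-263 lowered 8 of the 29 T cell genes in normoxia, against 0.427% of all genes, and raised none, against 0.108%. All 29 log2 fold changes were negative, with a median of −0.50 (all genes 0.01). In 6 genes every normoxia ABT-263 lung lay below every normoxia vehicle lung (all genes 1.02%). Both this comparison and hypoxia with vehicle use the normoxia vehicle lungs as their control, so their falls share those 5 libraries.

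The 8 genes were Cd5 (−0.91 ± 0.16 SE, adjusted p = 0.0218), Ccr7 (−0.62 ± 0.12, 0.0222), Trbc2 (−0.75 ± 0.14, 0.0222), Cd3g (−0.52 ± 0.11, 0.0284), Trbc1 (−0.83 ± 0.18, 0.0305), Cd3e (−0.83 ± 0.18, 0.0305), Cd2 (−0.48 ± 0.11, 0.0362) and Lck (−0.54 ± 0.13, 0.0473). Thus 2 CD3 chains and both beta chain genes fell, as did the chemokine receptor Ccr7. Cd5 had 1.79 to 2.47 CPM (median 2.08) in normoxia ABT-263 lungs and 3.43, 3.67, 3.64, 4.48 and 4.77 CPM in normoxia vehicle lungs, without overlap. Trac (−0.50 ± 0.14 SE, adjusted p = 0.0929), Cd3d (−0.72 ± 0.19 SE, adjusted p = 0.0817), Cd8a (−0.83 ± 0.20 SE, adjusted p = 0.0640) and Cd8b1 (−0.67 ± 0.17 SE, adjusted p = 0.0704) did not pass.

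These calls depended on single libraries. Leaving out normoxia vehicle replicate 4, or normoxia ABT-263 replicate 1 (whose labels conflict) or 4, left 0 calls. Leaving out normoxia vehicle replicate 3 or 5 left 3 in each case, and leaving out normoxia ABT-263 replicate 3 left 5. The median over the 29 genes without normoxia vehicle replicate 4 was −0.40. Without the libraries with conflicting labels 2 genes passed, with treatment taken from the tags 0, and by DESeq2 15 (all genes 1.95%). Apart from DESeq2, the share of all genes called in these fits was not counted. Whether calls were lost among T cell genes more than among all genes therefore cannot be told.

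In hypoxic lungs the same question found no T cell gene past the threshold (edgeR; 0.301% of all genes passed in either direction). DESeq2 called 1 gene (all genes 1.48%) and limma-voom 0 (all genes 0.0721%), and 10 of the 29 genes had an unadjusted p under 0.05, against 14.3% of all genes. The log2 fold change was negative for 26 of 29 genes, with a median of −0.27 (all genes −0.01). The smallest p values were those of Trac (−0.62 ± 0.15 SE, adjusted p = 0.0732), whose 5 hypoxia ABT-263 lungs all lay below the 6 hypoxia vehicle lungs (all genes 0.727%), Trbc1 (−0.62 ± 0.19 SE, adjusted p = 0.144) and Cd8b1 (−0.53 ± 0.18 SE, adjusted p = 0.196). Il7r (0.00 ± 0.14 SE) and Cd4 (0.19 ± 0.19 SE) were among those that did not pass. Leaving out the 3 libraries whose labels conflict also gave 0.

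Whether ABT-263 acted differently in hypoxia and normoxia was tested as the interaction. No T cell gene passed it (edgeR; 0% of all 16638 genes did), nor by DESeq2 (all genes 0.102%) or limma-voom (all genes 0%), and 7 of the 29 had an unadjusted p under 0.05 (all genes 9.29%). The median was 0.27 (all genes −0.02), a positive value meaning a smaller fall, or a larger rise, with ABT-263 in hypoxia than in normoxia. The smallest p values belonged to Camk4 (0.86 ± 0.34 SE, adjusted p = 0.431), Il7r (0.45 ± 0.19 SE, adjusted p = 0.464) and Cd3e (0.62 ± 0.26 SE, adjusted p = 0.467). The 8 calls in normoxia and the absence of calls in hypoxia are therefore not a shown difference. Leaving out the 3 libraries with conflicting labels, the interaction again called 0.

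Averaged over both oxygen conditions, ABT-263 lowered 13 of the 29 genes (all genes 1.31%) and raised none (all genes 1.23%). The median was −0.38 (all genes 0.00). Trbc1 had the largest fall, −0.73 ± 0.13 SE (adjusted p = 0.00293), and the other receptor chains fell too, with Trbc2 at −0.56 ± 0.10 (0.00359) and Trac at −0.56 ± 0.10 (0.00359). Cd5 stood at −0.66 ± 0.12 (0.00348) and the CD8 chains Cd8a and Cd8b1 at −0.68 ± 0.15 (0.0142) and −0.60 ± 0.12 (0.0107). Ccr7, Cd3g, Lck and Cd2 fell by 0.31 to 0.44, and Cd3d, Cd247 and Cd3e made up the 13. Cd4 (−0.11 ± 0.13 SE, adjusted p = 0.715), Foxp3 (−0.25 ± 0.20 SE, adjusted p = 0.559) and Il7r (−0.23 ± 0.10 SE, adjusted p = 0.214) did not pass. Without the libraries with conflicting labels 8 genes passed, and with treatment taken from the tags 0.

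Lungs exposed to hypoxia and given ABT-263 were last set against the normoxia vehicle controls. In this comparison 24 of the 29 genes were lower (all genes 17.2%) and none higher (all genes 17%), with a median of −0.93 (all genes −0.01). For 18 genes no hypoxia ABT-263 lung reached the lowest normoxia vehicle lung (all genes 10.1%). Trac fell by 65.6% (log2 fold change −1.54 ± 0.15 SE, adjusted p = 5.46e-08) and Cd3e fell by 58.3% (−1.26 ± 0.20 SE, adjusted p = 2.29e-05). Ccr7 (−1.04 ± 0.13), Cd3g (−0.95 ± 0.12), Lck (−0.95 ± 0.14), Cd247 (−0.83 ± 0.12), Trbc2 (−1.03 ± 0.15), Cd5 (−1.13 ± 0.18), Cd8b1 (−1.13 ± 0.18) and Cd6 (−1.27 ± 0.23) fell with adjusted p values of 0.000126 or less. The 5 genes that did not pass were Camk4, Cd27, Themis, Thy1 and Zap70. Without replicate 3 of the hypoxia ABT-263 group, which had the most Rag1, 25 genes were lower, and without the libraries with conflicting labels 23.

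Members with a promoter window were all searched for shared promoter letters. RefSeq promoter windows (GRCm38.p6, 250 bases before to 50 after the start) were found for 18 of the 33 genes, 27 windows in all. Those of 3 CD3 genes and Lck are printed 5′ to 3′ on the strand of the gene, because they encode the core of receptor signalling and, apart from Cd3d, fell together under hypoxia with vehicle. The motif of ETS factors was searched as AGGAAG and that of RUNX factors was searched as TGTGGT. The motif shared by TCF and LEF factors was searched as CTTTGA and that of GATA factors was searched as AGATAA. Capitals mark matches on either strand, and no match overlaps another in the printed windows.
Cd3d promoter, chr9:44981536-44981835, plus strand: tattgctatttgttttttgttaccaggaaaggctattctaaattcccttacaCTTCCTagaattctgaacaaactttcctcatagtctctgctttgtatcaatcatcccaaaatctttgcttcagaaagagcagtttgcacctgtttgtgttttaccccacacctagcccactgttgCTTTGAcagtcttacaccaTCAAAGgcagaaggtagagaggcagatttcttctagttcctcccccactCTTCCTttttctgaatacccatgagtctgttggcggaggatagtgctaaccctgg
Cd3e promoter, chr9:45009562-45009861, minus strand: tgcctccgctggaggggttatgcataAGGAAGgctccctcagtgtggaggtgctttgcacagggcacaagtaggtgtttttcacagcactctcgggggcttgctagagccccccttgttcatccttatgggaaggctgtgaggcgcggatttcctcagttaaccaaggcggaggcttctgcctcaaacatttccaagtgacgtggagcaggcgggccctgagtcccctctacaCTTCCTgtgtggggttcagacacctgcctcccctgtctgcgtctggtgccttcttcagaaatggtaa
Cd3g promoter, chr9:44980382-44980681, minus strand: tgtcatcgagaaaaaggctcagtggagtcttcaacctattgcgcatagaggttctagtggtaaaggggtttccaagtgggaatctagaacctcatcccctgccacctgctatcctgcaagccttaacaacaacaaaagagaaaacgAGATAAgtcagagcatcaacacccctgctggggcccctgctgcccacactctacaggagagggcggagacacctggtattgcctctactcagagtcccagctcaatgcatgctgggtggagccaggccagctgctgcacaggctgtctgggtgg
Lck promoter, chr4:129573592-129573891, minus strand: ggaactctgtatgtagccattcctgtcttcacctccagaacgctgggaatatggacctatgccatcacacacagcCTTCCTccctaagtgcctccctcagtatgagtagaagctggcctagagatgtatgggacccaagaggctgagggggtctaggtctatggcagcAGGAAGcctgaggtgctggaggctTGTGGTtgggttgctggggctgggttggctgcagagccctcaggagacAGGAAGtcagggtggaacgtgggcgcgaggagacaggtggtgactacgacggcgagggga
The ETS letters were in 14 of the 27 windows (51.9%) and in 35.4% of all 32851 windows. Because the 27 windows belong to 18 genes, some genes count more than once, and 12 of the 18 had the ETS letters. The TCF and LEF letters were in 25.9% against 16.0%, the RUNX letters in 14.8% against 16.8% and the GATA letters in 14.8% against 11.2%. Cd3d, which did not pass under hypoxia with vehicle, held 2 ETS and 2 TCF and LEF matches, Cd3e, which had the largest fall, 2 ETS matches, and Cd3g 1 GATA match. A match is a description of the sequence and says nothing of a factor's binding.

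Levels of T cell genes were set against one another and against genes of other leukocytes in 5 ratios, in each of 4 comparisons (exact two-sided permutation tests, adjusted over 20). The smallest p that groups of 5 and 6 allow is 0.00433, which for 1 ratio alone gives an adjusted p of 0.0866, so a single ratio could not pass. None passed, which does not show that the genes moved in proportion. Cd3e over Ptprc, the pan-leukocyte phosphatase CD45, averaged −4.53 ± 0.453 (log2, SD, n = 6) in hypoxia vehicle lungs and −3.97 ± 0.239 (SD, n = 5) in normoxia vehicle lungs, a difference of −0.55 ± 0.21 SE (exact permutation p = 0.0433, adjusted p = 0.277). Trac over the B cell receptor gene Cd79a averaged −2.22 ± 0.146 (SD, n = 5) in hypoxia ABT-263 lungs and −2.56 ± 0.145 (SD, n = 6) in normoxia ABT-263 lungs, a difference of 0.35 ± 0.09 SE (exact permutation p = 0.00866, adjusted p = 0.173).

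Cd8b1 over Cd4, a measure of cytotoxic against helper transcripts, averaged −0.24 ± 0.374 (SD, n = 5) in hypoxia ABT-263 lungs and 0.40 ± 0.351 (SD, n = 6) in hypoxia vehicle lungs. The difference of −0.63 ± 0.22 SE did not pass (exact permutation p = 0.0260, adjusted p = 0.260). Foxp3 over Cd4 differed by −0.31 to 0.18 in the 4 comparisons and Ccr7 over Cd3e by −0.11 to 0.31, and none of these passed (exact permutation tests, adjusted p of 0.471 or more).

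**Figure D3:**
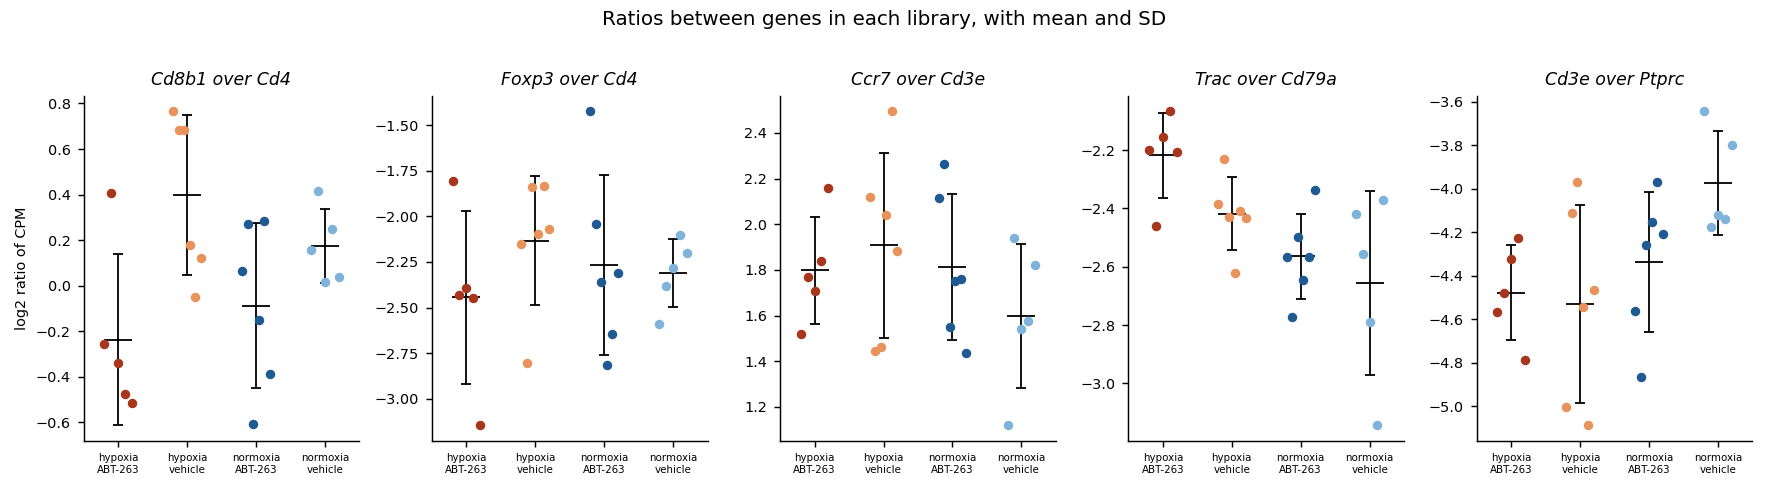
Log2 ratios of CPM (vertical axis, a scale for each panel) for 5 pairs of genes, with 1 point for each library and the mean and SD of each group in black; groups run as hypoxia ABT-263, hypoxia vehicle, normoxia ABT-263 and normoxia vehicle. Cd8b1 over Cd4 averaged −0.24 in hypoxia ABT-263 and 0.40 in hypoxia vehicle lungs.

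Other genes of the T cell receptor pathway were counted beside them. Of 23 tested signalling genes, hypoxia with vehicle lowered 11 (all genes 12.8%) and raised none (all genes 13.5%), with a median of −0.30, among them the phosphatases Ptpn6 (−0.53 ± 0.08 SE) and Ptpn22 (−0.84 ± 0.15 SE) and the adaptor Grap2 (−0.75 ± 0.12 SE). With ABT-263, hypoxia lowered 9 (all genes 21.3%) and raised 1 (all genes 17.9%), with a median of −0.17. In normoxia ABT-263 lowered 1 of the 23 (all genes 0.427%), the Tec family kinase Txk (−0.82 ± 0.18 SE, adjusted p = 0.0342), and in hypoxia again 1 (all genes 0.301% in either direction), Txk (−0.97 ± 0.20 SE, adjusted p = 0.0358). Several of these genes are also expressed by other leukocytes, and whether the list differs from the 29 genes was not tested.

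Genes of T cell subsets, effector function and homing had 21 tested members. Under hypoxia with vehicle 8 fell (all genes 12.8%) and none rose (all genes 13.5%), with a median of −0.38 (all genes 0.00). Examples were Cxcr5, a receptor of follicular helper and B cells, at −0.92 ± 0.12 SE and Tbx21, the factor of type 1 helper and NK cells, at −1.25 ± 0.21 SE. ABT-263 in normoxia lowered 3 of the 21 (all genes 0.427%), among them Cxcr5 (−0.63 ± 0.12 SE) and the chromatin organiser Satb1 (−0.44 ± 0.10 SE). In hypoxia it lowered 2 of the 21 (all genes 0.301% in either direction), among them Cxcr5 (−0.70 ± 0.13 SE).

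Genes of other lymphocytes fell beside those of T cells. Over all genes hypoxia with vehicle lowered 12.8% and raised 13.5%. Among 18 B cell genes it lowered 17 (median −0.88), and it also lowered 11 of 15 NK cell genes (median −0.84) and 10 of 12 pan-leukocyte genes (median −0.65). Of 14 monocyte and macrophage genes 5 fell and 3 rose (median −0.16). Of 10 tested neutrophil genes 4 fell and 1 rose, with a median of −0.72 against −0.62 for the T cell genes. Of 12 genes of the lung tissue itself 5 fell and none rose (median −0.20). Of 4 tested lymph node and follicle genes 3 fell (median −0.85), of which Cr2 and Fcer2a are also genes of B cells. ABT-263 averaged over oxygen conditions lowered 17 of 18 B cell, 11 of 15 NK cell, 6 of 12 pan-leukocyte and 0 of 12 lung tissue genes (all genes 1.31%). It lowered 0 of 10 neutrophil genes (median −0.43) and 0 of 14 monocyte and macrophage genes (median −0.06).

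The B cell list summed to 282 ± 31.8 CPM (SD, n = 5) in hypoxia ABT-263, 435 ± 45.8 (n = 6) in hypoxia vehicle, 527 ± 49.3 (n = 6) in normoxia ABT-263 and 791 ± 171 (n = 5) in normoxia vehicle lungs. The T cell genes summed to 200.3 ± 20.1, 234 ± 7.95, 225 ± 22.7 and 321 ± 45.0 CPM in the same 4 groups. What part the lower levels of the other leukocyte genes and of the lymph node and follicle genes have in the T cell results was not tested.

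**Figure D4:**
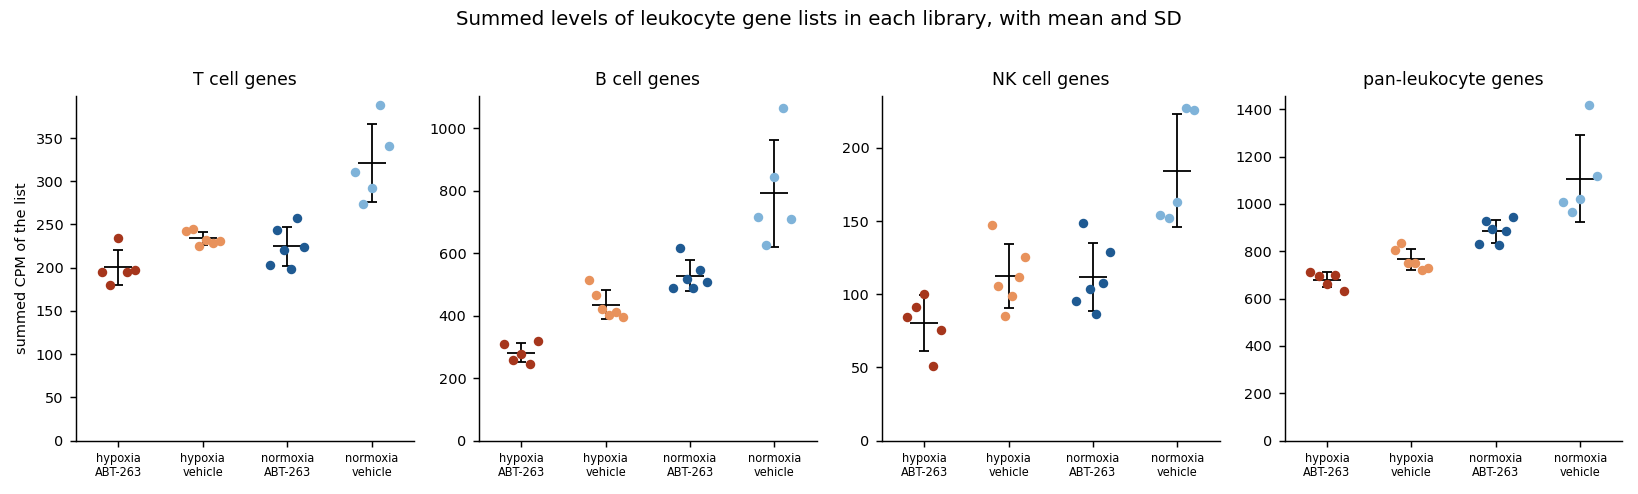
Summed CPM (vertical axis, from 0) of 33 T cell, 18 B cell, 15 NK cell and 12 pan-leukocyte genes, with 1 point for each library and the mean and SD of each group in black; groups run as hypoxia ABT-263, hypoxia vehicle, normoxia ABT-263 and normoxia vehicle. The normoxia vehicle lungs, at 273 to 389 CPM of T cell genes, lie above all other lungs in the first panel.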

How the data were processed

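Whole-lung RNA was extracted with an RNeasy kit and sequenced on a NextSeq from stranded TruSeq mRNA libraries, per the labels' protocols. The authors deposited expected counts per gene. The submitters' processing notes name GRCm38 and the tools Trimmomatic, STAR and RSEM. Tool versions are not given in the sources used here. Such counts can hold parts of reads that fit several genes.

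Expected counts were rounded to whole numbers. The low-count filter of edgeR 4.0.16 (R 4.3.3; filterByExpr, minimum count 10) left 16638 genes, and 1 robust quasi-likelihood fit with TMM scaling held the 4 title groups. P values are two-sided and were adjusted by Benjamini-Hochberg over all tested genes, with 0.05 as the threshold. SEs of log2 fold changes were not estimated by the fit. Each was worked back as the absolute log2 fold change over the square root of the F statistic of its test. CPM are counts over the TMM-scaled library total. A range is called apart when no library of one group reaches the other. Ratios used log2 CPM with a prior count of 2 and exact permutation tests (scipy 1.17.1). Coordinates are from GENCODE M21. The fit was tested on simulated counts with known changes.

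The members and lists were chosen with earlier results of these data known, and some lists share genes. Values per library were given for Cd3e, Trac, Cd4, Cd8b1, Foxp3, Lef1, Il7r and the 3 members with the smallest p besides (Ccr7, Cd3g and Trbc1). Fold changes were given for up to 10 members per comparison that passed, or for 3 with the smallest p where none did, and for up to 3 genes of each other list, of which 1 is not reported here. Values of other members account for the rest, and the levels of Camk4, Cd5, Lck and Cd40lg were chosen after their values were seen. Alternatives were DESeq2 1.42.0, limma-voom (limma 3.58.1), RLE factors, library totals without TMM, other filters, a fit of the compared groups alone, the label alternatives, a prior count of 0.5 for ratios, normoxia ABT-263 replicates 2 and 6 left out, and each library left out. The labels give no number that pairs libraries and no mouse identity, so p values measure the spread between libraries. Libraries of 1 group all differed by more than counting noise (chi-square per gene of 5.35 to 40.9). Normoxia ABT-263 replicate 2 had values of 28.3 to 40.9 against replicates 1, 3, 4 and 5 of its group and 17.6 against replicate 6. Figures were drawn with matplotlib 3.10.9.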

Additional observations from a re-analysis of the deposited data

Results flagged for a closer look

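In 9 of 136 groups of libraries examined, 1 library stood apart from the rest of its group by Dixon's test at its 95% critical value; chance sets apart about 1 group in 20.

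Cd8b1 stood at 7.39 CPM in hypoxia vehicle replicate 2, where the others had 3.94 to 4.87 CPM, and at 7.24 CPM in normoxia ABT-263 replicate 5, where the others had 4.01 to 4.97 CPM. Lck stood at 15.4 CPM in hypoxia ABT-263 replicate 3, the library with the most Rag1, against 9.41 to 10.2 CPM in the rest of its group. In hypoxia vehicle replicate 6, Lat stood at 17.2 CPM (others 11.3 to 12.8 CPM) and Trbc2 at 17.4 CPM (others 12.5 to 14.2 CPM). In normoxia vehicle replicate 4, Bcl11b stood at 4.25 CPM (others 2.40 to 2.79 CPM) and Il7r at 14.9 CPM (others 9.39 to 10.6 CPM). The log2 ratio of Cd8b1 over Cd4 was 0.41 in hypoxia ABT-263 replicate 2 (others −0.52 to −0.26), and that of Foxp3 over Cd4 was −2.80 in hypoxia vehicle replicate 2 (others −2.15 to −1.84).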

How the results depend on the processing

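The counts of T cell genes called under hypoxia with vehicle (18) and for hypoxia with ABT-263 against normoxia vehicle (24) stayed within 1.5 times of these under all alternatives run, with 16 to 19 and 20 to 25 when each library was left out. For hypoxia in ABT-263 lungs (11) the count was 6 with treatment taken from the tags and 9 to 12 with each library left out. ABT-263 in normoxia depended most on the choices: 8 became 15 by DESeq2, 1 in a fit of the compared groups alone, 2 without the 3 libraries with conflicting labels, 0 with treatment from the tags, and 0 to 12 with each library left out. ABT-263 in hypoxia (0) gave 1 by DESeq2 and 1 without normoxia ABT-263 replicates 2 and 6, and 0 without the 3 libraries and with each library left out. ABT-263 averaged over oxygen conditions (13) gave 8 without the 3 libraries, 0 with treatment from the tags, and 9 to 15 with each library left out. The interaction gave 0 throughout. Outside DESeq2 and limma-voom, the share of all genes called under these alternatives was not counted. A changed count is thus not shown to be particular to T cell genes.

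Some differences in ratios changed sign. Foxp3 over Cd4 for ABT-263 in normoxia was −0.12 without the 3 libraries and −0.12 to 0.15 with each library left out. Ccr7 over Cd3e was 0.12 without the 3 libraries for hypoxia with ABT-263 (−0.10 to 0.0755 with each left out) and 0.0036 for ABT-263 in hypoxia (−0.20 to 0.0089). Cd3e over Ptprc for ABT-263 in hypoxia was −0.0199 without the 3 libraries (−0.0583 to 0.16), and Trac over Cd79a for ABT-263 in normoxia was −0.0306 to 0.16 with each library left out. The cause of these changes was not tested.

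No paired analysis was possible because the labels give no replicate numbers; those used here only name the libraries. Foxp3, Ubash3a and Sh2d2a rest on few counts, and Cd28, Icos, Ctla4 and Cd40lg were below the depth needed for a test.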

Other observations

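Ligands that keep T cells alive or draw them into tissue were measured beside their receptors. Il7, the cytokine that Il7r binds, was higher under hypoxia with vehicle (log2 fold change 0.43 ± 0.13 SE, edgeR adjusted p = 0.0150), whereas the chemokine Ccl5 was lower (−1.14 ± 0.14 SE, adjusted p = 2.24e-06), as was the adhesion protein Vcam1 (−0.48 ± 0.10 SE, adjusted p = 0.000865). With ABT-263, hypoxia raised the cytokine Il15 (0.71 ± 0.12 SE, adjusted p = 5.86e-05) and the chemokines Cxcl16 (0.31 ± 0.07 SE, adjusted p = 0.00117) and Cxcl9 (1.47 ± 0.39 SE, adjusted p = 0.00465), and lowered Ccl5 (−0.76 ± 0.15 SE, adjusted p = 0.000242). Of the 8 ligand genes tested, 1 rose (all genes 13.5%) and 2 fell (all genes 12.8%) under hypoxia with vehicle. Under hypoxia with ABT-263, 3 rose (all genes 17.9%) and 1 fell (all genes 21.3%). In normoxia ABT-263 lowered 1 of the 8 (all genes 0.427%). With so few genes these shares are not a result about the list. Ccl5 is itself made by T and NK cells, and these ligands were not related to T cell genes by any test.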
